A study of Arabidopsis thaliana with 18 samples.

Results

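RNA from the polysomal part of sucrose gradients was set against unfractionated total RNA in gcn2 seedlings of Arabidopsis thaliana. The comparison used 6 of the series' 18 Affymetrix ATH1 arrays, 3 of gcn2 polysomal RNA and 3 of gcn2 total RNA, which were chosen by their titles. Control probe sets were left out, so that 22746 of 22810 probe sets were tested. All plants, mutant and wild type, were of the Landsberg erecta line and 10 days old, and RNA came from their aerial parts. They stood on GM medium with 1% sucrose at 22 °C with 16 h of light a day and were frozen 4 h into the light period, and the labels name no stress or chemical treatment for any group. The mutant carries the label gcn2, and for its allele, its parent line and the number of plants pooled per sample nothing was given in the sources used here. Polysomal RNA was a pool of the 6 heaviest gradient fractions and non-polysomal RNA a pool of the 6 lightest. The wild-type counterparts, 3 polysomal and 3 total RNA arrays, and the 3 gcn2 non-polysomal arrays are given beside the gcn2 values where they help to place them.

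A polysome is a transcript carrying several ribosomes at once, and such transcripts sink to the bottom of a sucrose gradient while free and singly loaded transcripts stay near the top. Polysomal signal relative to total RNA therefore describes how strongly a transcript is represented among heavily loaded RNA compared with the whole transcript pool. Differences between gradient RNA and RNA extracted directly enter the same measure. GCN2 is a protein kinase that phosphorylates the initiation factor eIF2 when uncharged tRNA accumulates, and in yeast its activation needs Gcn1. The labels mention no shortage of amino acids.

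In gcn2 seedlings, among loci at or above the median signal, transcripts of short genes were on balance higher in polysomal than in total RNA and those of long genes lower. Transcripts that rose included those of 9 of 11 measured autophagy genes, all of the ATG8 family, and 6 of 6 histone genes. They also included 9 of 20 genes of ubiquitin transfer and 9 of 29 secreted and other small peptides. Transcripts that fell included those of the starch enzyme PWD and the GCN1 homologue ILA. In groups picked after their values were seen, 3 of 5 SPIRAL1 genes and 5 of 12 RNA polymerase subunits rose, while 4 of these subunits and 3 of 3 plastid chaperonin subunits fell. In limma's moderated test across all probe sets, 4355 of 22746 passed an adjusted p of 0.05 (19.1%). Of these 2004 were higher in polysomal RNA (8.81%) and 2351 were lower (10.3%). Without gcn2 polysomal replicate 1 these counts were 1189 and 1497. A difference of at least 2-fold was found for 382 of the higher (1.68% of all tested) and 511 of the lower (2.25%). Differences ran from −3.70 to 3.18 on the log2 scale, with a median of 0.03 and quartiles of −0.20 and 0.21. These extracts mix the cell types of the aerial parts, so a difference cannot be assigned to any of them. The arrays share a common scale, so each value is relative to the array-wide level. When each array was instead centred on its BioB and BioC hybridization controls, the median of all probe sets moved to −0.30, and 3.78% of the calls were higher in place of 46.0%.

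Correlations between arrays were 0.982 to 0.991 among the polysomal and 0.991 to 0.994 among the total RNA arrays, and 0.962 to 0.979 between the groups. The lower quartile of the 18 arrays lay between 3.21 and 3.52 log2 units, and few probe sets this dim were called. When probe sets were cut into 5 equal classes by signal, 0.703% of the dimmest were higher and 0.352% lower in polysomal RNA, against 21.1% and 19.8% of the brightest. Housekeeping controls (Actin, GAPDH and ubiquitin), which are probed near both of their ends, had an excess of 3′ over 5′ signal of 2.99 ± 0.28 log2 units in gcn2 polysomal RNA and of 2.22 ± 0.05 in gcn2 total RNA (SD, n = 3 each). The groups did not overlap (exact two-sided permutation test p = 0.1, the smallest that 3 against 3 allows), and with both genotypes the difference was 0.70 (exact permutation test, 6 polysomal against 6 total RNA arrays, p = 0.00216). This measure therefore separates polysomal from total RNA in both genotypes. Its values do not overlap between total RNA and gradient arrays, while those of polysomal and non-polysomal arrays overlap in part. In a fit with it as a covariate 550 probe sets were higher and 585 lower. Of the 4355 calls 1003 were kept in the same direction, with 0 turned. The slope of that fit comes from arrays within groups and is carried across the gap between total and gradient RNA. The fit therefore cannot separate the 3′ excess from the kind of RNA, here and for the genes and groups below. The BioB and BioC controls stood at 9.31 ± 0.21 in gcn2 polysomal and 8.97 ± 0.32 in gcn2 total RNA (SD, n = 3 each, exact permutation test p = 0.3). As a check of the tissue, the leaf genes RCA and PRK were among the brightest in gcn2 total RNA, at 13.80 to 14.11 and 11.98 to 12.34, while the root hair expansins EXPA7 and EXPA18 stood at 3.38 to 3.82 and 4.21 to 4.55. PYK10, a beta-glucosidase of roots and of seedling epidermis, was at 10.82 to 11.13.

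**Figure D1:**
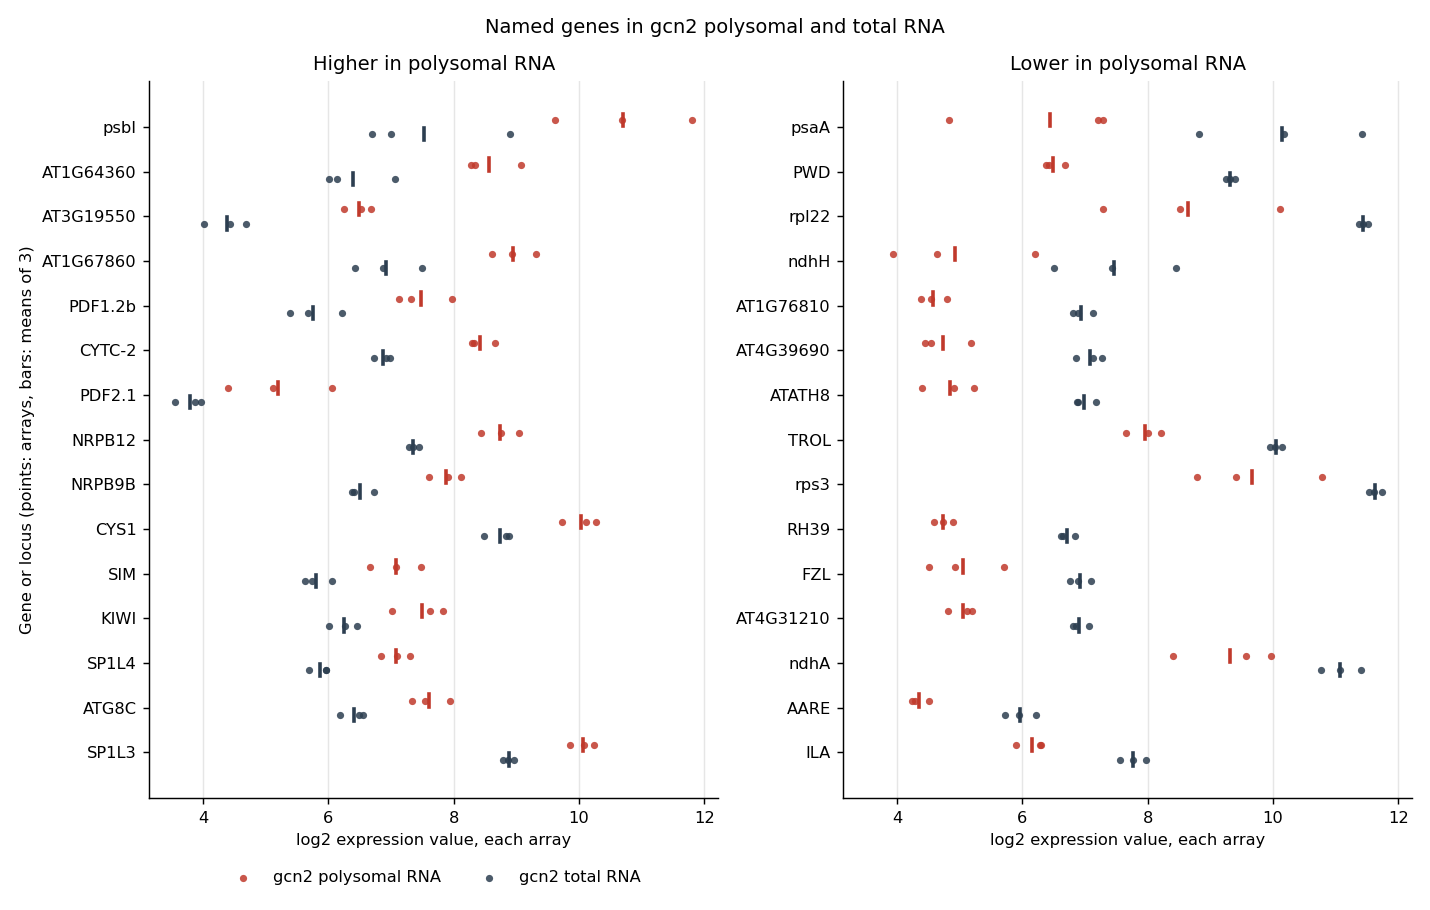
Deposited log2 expression value of each named gene on every gcn2 array, polysomal RNA above total RNA in each row, with bars for the means of 3 arrays and genes ordered by the size of the difference. The polysomal and total RNA points do not overlap for any gene shown, since non-overlap was part of the rule for naming them. The polysomal points spread most for the plastid genes psbI, psaA, rpl22, ndhH and rps3.

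The nuclear genes with a symbol that rose most encode proteins of varied function. PDF1.2b (AT2G26020), a plant defensin, stood at 7.13, 7.98 and 7.32 in gcn2 polysomal RNA and at 6.22, 5.40 and 5.67 in gcn2 total RNA, a rise of 1.72 (SE 0.31, n = 3 each, limma adjusted p = 0.000975). Its probe set is of the type that can bind close relatives, so the signal may belong to several members of the defensin family. CYTC-2 (AT4G10040), one of the cytochromes c of the mitochondrial electron chain, stood at 8.66, 8.32 and 8.30 in polysomal and 6.99, 6.92 and 6.73 in total RNA, which is 2.92-fold higher (log2 1.55, SE 0.17, limma adjusted p = 1.98e-05). Every polysomal array of CYTC-2 lay above every total RNA array by more than the spread within either group. CYS1 (AT5G12140), a cystatin that inhibits cysteine proteases, was at 10.27, 10.12 and 9.72 in polysomal and at 8.84, 8.89 and 8.49 in total RNA (2.46-fold higher, limma adjusted p = 0.00386). SIM (AT5G04470), an inhibitor of cyclin-dependent kinases that turns dividing trichome cells to endoreduplication, averaged 7.08 ± 0.41 in polysomal and 5.81 ± 0.23 in total RNA (SD, n = 3 each), a rise of 1.27 (SE 0.21). KIWI (AT5G09250), a transcriptional coactivator, rose by 1.24 (SE 0.25), and the defensin PDF2.1 (AT2G02120) by 1.39 (SE 0.34). The PDF2.1 call ended without gcn2 polysomal replicate 1, its highest array. In gcn2 non-polysomal RNA SIM averaged 7.08, PDF1.2b 7.26 and KIWI 7.14, while CYTC-2 averaged 7.04, CYS1 8.02 and PDF2.1 4.09. For some of these genes a rise over total RNA was thus seen in both gradient pools.

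The 3 loci without a symbol that are named here rose more than any of these nuclear genes. AT1G64360 was at 8.35, 9.08 and 8.28 in gcn2 polysomal RNA, against 7.06, 6.01 and 6.14 in gcn2 total RNA (log2 2.17, SE 0.39, limma adjusted p = 0.000951). AT3G19550 was at 6.53, 6.68 and 6.26 in polysomal and 4.69, 4.42 and 4.02 in total RNA (log2 2.11, SE 0.31, limma adjusted p = 0.000167). AT1G67860 averaged 8.96 ± 0.35 in polysomal and 6.93 ± 0.54 in total RNA (SD, n = 3 each), a rise of 2.03 (SE 0.35). All 3 are short genes of 606 to 1298 base pairs, and in the wild type they stood at 2.72, 2.12 and 2.66.

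Among the transcripts that fell, PWD had the smallest adjusted p of all probe sets. PWD (AT5G26570) encodes phosphoglucan water dikinase, which adds phosphate to starch so that it can be broken down. It stood at 6.38, 6.67 and 6.43 in gcn2 polysomal RNA and at 9.40, 9.31 and 9.25 in gcn2 total RNA, 7.08-fold lower (log2 −2.82, SE 0.13, n = 3 each, limma adjusted p = 8.15e-10). The gap between the groups was many times the spread within them. TROL (AT4G01050), a thylakoid protein that anchors ferredoxin-NADP reductase, was at 8.00, 7.65 and 8.22 in polysomal and 9.94, 10.03 and 10.14 in total RNA (log2 −2.08, SE 0.18, limma adjusted p = 1.70e-06). RH39 (AT4G09730), a plastid RNA helicase needed for maturation of plastid ribosomal RNA, averaged 4.74 ± 0.15 in polysomal and 6.70 ± 0.12 in total RNA (SD, n = 3 each) and fell by 1.97 (SE 0.21). FZL (AT1G03160), a dynamin-like protein of the chloroplast, fell by 1.87 (SE 0.26) and ATATH8 (AT2G39190) fell by 2.13 (SE 0.26). AARE (AT4G14570), an acylamino-acid-releasing peptidase, fell by 1.62 (SE 0.17). Several of these proteins work in the chloroplast although their genes lie in the nucleus.

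Loci without a symbol fell to a like extent. AT1G76810 was at 4.54, 4.79 and 4.38 in gcn2 polysomal and 7.13, 6.80 and 6.89 in gcn2 total RNA (log2 −2.37, SE 0.17, limma adjusted p = 1.62e-07). AT4G39690 fell by 2.36 (SE 0.24) and AT4G31210 fell by 1.86 (SE 0.17). Their non-polysomal levels differed. AT4G31210 averaged 5.04 ± 0.20 in polysomal, 7.01 ± 0.22 in non-polysomal and 6.91 ± 0.14 in total gcn2 RNA, whereas AT1G76810 averaged 4.57 ± 0.20, 5.10 ± 0.17 and 6.94 ± 0.17 in the same order (SD, n = 3 each). RH39 likewise averaged 4.01 ± 0.30 in non-polysomal RNA and PWD 7.13 ± 0.20, both below their total RNA level. The non-polysomal and polysomal values share the same total RNA arrays.

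ILA (AT1G64790) is the plant homologue of GCN1, the partner through which yeast Gcn2 is activated, and its gene spans 18607 base pairs. Its transcript stood at 5.90, 6.28 and 6.29 in gcn2 polysomal RNA and at 7.77, 7.97 and 7.56 in gcn2 total RNA, 3.06-fold lower (log2 −1.61, SE 0.19, n = 3 each, limma adjusted p = 3.27e-05). The highest polysomal array lay more than 1 log2 unit below the lowest total RNA array. In the wild type ILA fell by 1.60 (SE 0.19), and the genotypes differed by −0.01 (SE 0.27). EIF4A-2, the only measured member of the initiation factor list and an RNA helicase that unwinds transcript leaders, was at 9.51, 9.69 and 9.62 in polysomal and 10.31, 10.32 and 10.24 in total RNA (log2 −0.68, SE 0.13, limma adjusted p = 0.00152). Of 4 genes with a conserved upstream open reading frame, a short frame in the leader that controls translation of the main one, bZIP44 rose by 0.66 (SE 0.18), while BZIP53 stood at 0.26, SAMDC at −0.07 and PMEAMT at −0.16. Of 7 genes of amino acid biosynthesis 0 passed in limma in gcn2 (median −0.19), with 1 higher and 2 lower at an unadjusted p under 0.05, and in the wild type 3 of the 7 were lower. HISN5B, a histidine synthesis enzyme, was the highest of them at 0.50 (SE 0.18, limma adjusted p = 0.0549). Of 7 heat shock and co-chaperone genes 0 passed in limma and 0 had an unadjusted p under 0.05 (median −0.05), with Hsp70-2 at −0.14 and Hop2 at −0.17.

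Over the 13355 named loci, 9.61% were higher and 7.59% lower in gcn2 polysomal RNA (17.2% in all), with a median of 0.06, and 8.48% and 7.35% in the wild type (15.8% in all). The counts of each gene group below stand against these shares, which cover loci of every span and signal. Among nuclear loci at or above the median signal, 46.6% were higher in the class of shortest genes and 26.4% in the next. Median spans were 839 base pairs for the small peptides, 981 for the histones, 1798 for the autophagy and 1836 for the ubiquitin genes. The group counts were not tested against genes of like span and signal. For gcn2 non-polysomal against total RNA, medians were 0.11 for the autophagy and −0.27 for the histone genes. They were 0.20 for the ubiquitin genes and 0.29 for the small peptides. The ATG8 proteins are ubiquitin-like, become attached to lipid and coat the membrane of the autophagosome. Of 11 measured autophagy genes 9 rose and 0 fell, with a median of 0.90, and all 9 encode ATG8 proteins. ATG8H was at 6.44, 6.34 and 6.30 in gcn2 polysomal RNA, against 5.43, 5.12 and 5.20 in gcn2 total RNA (log2 1.11, SE 0.14, limma adjusted p = 4.80e-05). ATG8C was at 7.94, 7.55 and 7.33 in polysomal and 6.49, 6.19 and 6.56 in total RNA (log2 1.19, SE 0.19, limma adjusted p = 0.000278). The groups did not overlap for either gene, which for ATG8C was part of the rule for naming it. ATG8D rose by 1.13 (SE 0.19) and ATG8G by 0.98 (SE 0.18), while APG8H, ATG8E, APG8A, ATG8F and ATG8B rose by 0.75 to 0.97. The measured genes outside the ATG8 family were ATG3, the conjugating enzyme for ATG8, at −0.12 (SE 0.24), and AT5G66930, whose listed synonym is ATG101, at 0.17 (SE 0.17). In the wild type 9 of the 11 rose, with a median of 1.18. With the 3′ excess as a covariate 5 of the 11 passed, and with the control centring 0 passed in limma (4 higher at an unadjusted p under 0.05), both with a median above 0.

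Histones package DNA, and transcripts of the core histones are most abundant in dividing cells. All 6 measured histone genes rose, with a median of 0.88. HTB4, a histone H2B, was at 9.91, 9.93 and 9.50 in gcn2 polysomal and 8.87, 9.02 and 8.83 in gcn2 total RNA (log2 0.88, SE 0.17, limma adjusted p = 0.00142). HTB2, HTB1 and HTB11, also H2B genes, rose by 0.87 (SE 0.19), 0.93 (SE 0.21) and 0.88 (SE 0.24). HTR12, the centromeric histone H3, rose by 0.75 (SE 0.20), at 4.61 to 5.25 in polysomal and 4.12 to 4.22 in total RNA. HIS1-3, a drought-induced linker histone, rose by 1.02 (SE 0.31) in gcn2, against 2.16 in the wild type. Without gcn2 polysomal replicate 1 the number that rose was 3 of 6, and with the 3′ covariate it was 0 of 6 in limma (3 at an unadjusted p under 0.05) with a median of 0.65. With the control centring 0 of 6 passed in limma and 0 had an unadjusted p under 0.05, with a median of 0.54. In the wild type 3 of the 6 rose, with a median of 0.70.

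RNA polymerases combine large catalytic subunits with small ones, several of which are shared among the enzymes. This group, the SPIRAL1 family and chaperonin 60 were picked after their values were seen. Of 12 measured subunits 5 rose and 4 fell. NRPB12 was at 9.04, 8.76 and 8.44 in gcn2 polysomal and 7.35, 7.28 and 7.44 in gcn2 total RNA (log2 1.39, SE 0.28, limma adjusted p = 0.00224). NRPB9B was at 8.13, 7.91 and 7.60 in polysomal and 6.41, 6.38 and 6.73 in total RNA (log2 1.37, SE 0.29, limma adjusted p = 0.00306). In gcn2 non-polysomal RNA NRPB12 averaged 8.61 and NRPB9B 6.57. The other small subunits that rose were NRPB6A by 1.07 (SE 0.17), NRPB9A by 1.02 (SE 0.19) and NRPB6B by 0.84 (SE 0.21). On the other side NRPA2, the second-largest subunit of RNA polymerase I, was at 5.49, 5.54 and 5.68 in polysomal and 6.56, 6.53 and 6.81 in total RNA (log2 −1.06, SE 0.14, limma adjusted p = 7.70e-05). NRPA1, the largest, fell by 1.21 (SE 0.21), and the large subunits NRPC1 and NRPC2 of RNA polymerase III both fell by 0.65 (SE 0.18 and 0.16). NRPC1 was dim, at 2.79 to 3.13 in polysomal and 3.36 to 3.79 in total RNA. The 5 genes that rose span 1397 to 1898 base pairs and the 4 that fell 7818 to 11049. NRPB7, NRPD7 and NRPE7, which belong to a subunit pair outside the core, stood at 0.50, 0.33 and 0.30 and did not pass. With the 3′ covariate 2 rose and 2 fell, and with the control centring 2 rose and 4 fell.

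The SPIRAL1 proteins are small microtubule-binding proteins that keep cell expansion straight. SP1L3 was at 10.25, 10.08 and 9.86 in gcn2 polysomal and 8.80, 8.97 and 8.87 in gcn2 total RNA (log2 1.19, SE 0.12, limma adjusted p = 1.04e-05). SP1L4 rose by 1.21 (SE 0.21) and SPR1 by 1.00 (SE 0.16), while SP1L2 stood at 0.48 and SP1L5 at 0.34. Against the same total RNA arrays the family's median was 0.88 in gcn2 non-polysomal and 1.00 in gcn2 polysomal RNA. Of these 5 genes 1 rose with the 3′ covariate and 0 in limma with the control centring, with 3 higher at an unadjusted p under 0.05. By contrast TUA6, an alpha-tubulin, was the single gene of 9 in the cytoskeleton list to pass, at 9.77, 9.95 and 9.64 in polysomal and 10.74, 10.83 and 10.70 in total RNA (log2 −0.97, SE 0.20, limma adjusted p = 0.00252). Chaperonin 60 folds proteins inside the chloroplast, and its 3 measured beta subunits all fell. Cpn60beta2 was at 8.85, 8.55 and 9.36 in polysomal and 10.03, 10.29 and 10.80 in total RNA (log2 −1.45, SE 0.27, limma adjusted p = 0.00102). Cpn60beta4 fell by 1.18 (SE 0.13) and Cpn60beta3 by 1.08 (SE 0.17). In the wild type all 3 fell as well, with a median of −1.63.

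**Figure D2:**
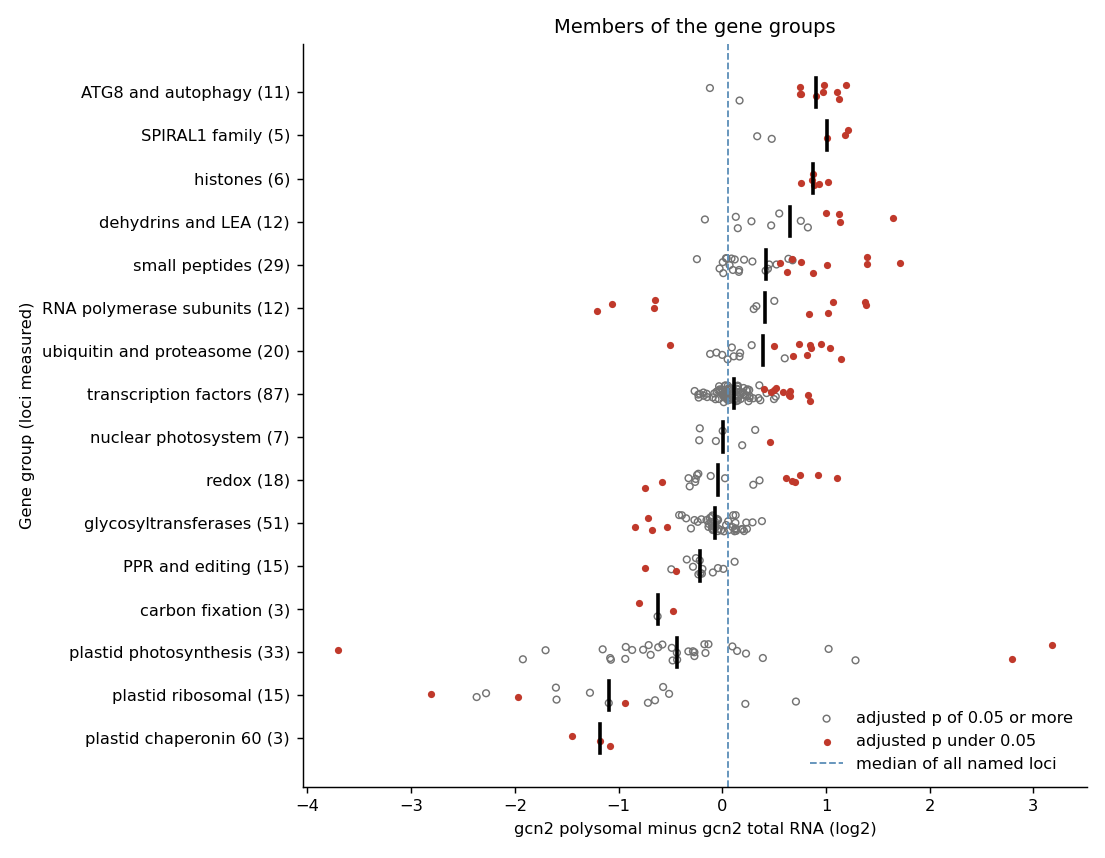
Difference between gcn2 polysomal and gcn2 total RNA for each measured locus of 16 gene groups, as points on the log2 scale, filled where the limma adjusted p was under 0.05, with a black bar for the group's median and a dashed line for the median of all named loci. The autophagy, SPIRAL1 and histone medians lie between 0.88 and 1.00, the RNA polymerase subunits form 2 clusters, and the plastid-encoded groups spread the most.

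Ubiquitin-conjugating enzymes pass ubiquitin to target proteins. Of 20 measured genes of ubiquitin transfer 9 rose and 1 fell, with a median of 0.39. UBC29 was at 9.46, 9.34 and 9.01 in gcn2 polysomal and 8.07, 8.19 and 8.12 in gcn2 total RNA (log2 1.14, SE 0.15, limma adjusted p = 6.36e-05). UBC27 rose by 1.04 (SE 0.15), UBC30 by 0.95 (SE 0.14) and PEX4, the conjugating enzyme of peroxisomes, by 0.85 (SE 0.13). The others were SK18, an SKP1-like protein, UBC18, UBC19, UBC20 and UBC22, at 0.50 to 0.86. CUL4, the long scaffold of an E3 ligase, fell by 0.51 (SE 0.15). Fewer rose without gcn2 polysomal replicate 1 (6 of 20), without replicate 2 (5 of 20) or with the 3′ covariate (4 of 20). With the control centring 0 of 20 passed in limma in either direction, with 2 higher and 1 lower at an unadjusted p under 0.05 and a median of 0.05.

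Small secreted peptides act in defence or as signals between cells. Of 29 measured genes on the list of secreted and other small peptides 9 rose and 0 fell, with a median of 0.42. LCR69 and LCR68, defensin-like proteins of the cysteine-rich kind, were the brightest of the 9. LCR69 was at 11.93, 11.82 and 11.29 in gcn2 polysomal and 10.93, 11.01 and 10.81 in gcn2 total RNA (log2 0.76, SE 0.25, limma adjusted p = 0.0376), and LCR68 rose by 0.88 (SE 0.22). PDF1.2 rose by 1.40 (SE 0.38) and PDF1.4 by 1.01 (SE 0.29), in addition to PDF1.2b and PDF2.1. Among the signal peptides CLE44, which keeps vascular stem cells from differentiating, rose by 0.62 (SE 0.19), RALFL24 by 0.67 (SE 0.23) and STOMAGEN, which promotes stomata, by 0.56 (SE 0.19). Of the 29, 2 rose without gcn2 polysomal replicate 1, 4 without polysomal replicate 2 and without total RNA replicates 2 or 3, and 0 in limma with the 3′ covariate, where 3 were higher at an unadjusted p under 0.05. With the control centring 1 of 29 rose, and the median was 0.08.

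Dehydrins and LEA proteins protect cells during drought and cold. Of 12 measured 4 rose and 0 fell, with a median of 0.65. The dehydrin AT1G54410 was at 12.06, 12.01 and 12.29 in gcn2 polysomal and 11.08, 10.93 and 10.96 in gcn2 total RNA (log2 1.13, SE 0.20, limma adjusted p = 0.000822). COR15B, a chloroplast protein induced by cold, rose by 1.13 (SE 0.28) and LEA4-5 by 1.00 (SE 0.20). LEA18 rose by 1.65 (SE 0.56), but its polysomal arrays were far apart at 6.35, 4.65 and 3.56, against 2.80, 3.39 and 3.41 in total RNA. Without dim probe sets 2 dehydrin and LEA genes rose, and with the 3′ covariate 1 did. With the control centring 0 of 12 passed in limma, with 4 higher at an unadjusted p under 0.05.

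Redox proteins keep the balance of oxidized and reduced thiols and remove peroxides, and they moved both ways. Of 18 measured 6 rose and 2 fell, with a median of −0.04. The glutaredoxins GRXC1 and GRXC2 rose by 1.11 (SE 0.17) and 0.92 (SE 0.19). GRXC1 was at 6.78, 6.41 and 6.19 in gcn2 polysomal and 5.26, 5.55 and 5.25 in gcn2 total RNA (limma adjusted p = 0.000253). TRXF2, a thioredoxin that activates Calvin cycle enzymes in the light, rose by 0.70 (SE 0.16), the mitochondrial peroxiredoxin PRXIIF by 0.61 (SE 0.14), GRX480 by 0.67 (SE 0.20) and the zinc finger protein STZ by 0.75 (SE 0.18). PRXR1, a peroxidase, and TAPX, the thylakoid ascorbate peroxidase, fell by 0.74 (SE 0.18) and 0.58 (SE 0.20). With the 3′ covariate 1 rose and 1 fell, and with the control centring 0 rose and 1 fell, with 1 higher and 3 lower at an unadjusted p under 0.05 in limma.

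Of 87 measured transcription factors 10 rose and 0 fell, with a median of 0.11. The share that rose is near the 9.61% of all named loci, and nothing is read from that count. The bHLH proteins bHLH104, bHLH115 and bHLH34, which act together in the response to iron shortage, had the smallest adjusted p of the group. bHLH104 was at 8.11, 8.02 and 8.11 in gcn2 polysomal and 7.51, 7.40 and 7.40 in gcn2 total RNA (log2 0.64, SE 0.11, limma adjusted p = 0.000768). bHLH115 rose by 0.84 (SE 0.16) and bHLH34 by 0.59 (SE 0.14). BZIP60, which switches on genes for protein folding in the endoplasmic reticulum, rose by 0.47 (SE 0.14), and bZIP19, a zinc sensor, by 0.40 (SE 0.13). The rest were AT1G06070, AGL18, AGL87, IAA20 and bZIP44, at 0.50 to 0.83. Of the 87, 5 rose without gcn2 polysomal replicate 1 or total RNA replicate 2, 6 without polysomal replicate 2 or total RNA replicate 1, and 3 with the 3′ covariate. With the control centring 0 of 87 passed in limma and 0 had an unadjusted p under 0.05, and the median was −0.22. Among the jasmonate genes the factors MYC4 and MYC3 fell by 0.64 (SE 0.15) and 0.59 (SE 0.17), and JMT stood at −0.06. In the list for the endoplasmic reticulum ATERDJ2A, part of the protein import machinery, and DER2.2 fell by 0.60 (SE 0.16) and 0.58 (SE 0.17), and BZIP60 was the 1 of 10 to rise.

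In several enzyme families the calls were few. Glycosyltransferases had 0 of 51 higher and 4 lower (median −0.07), namely UGT74D1 by 0.84 (SE 0.15), the glucosinolate enzyme UGT74B1 by 0.71 (SE 0.17), the flavonol enzyme UGT78D1 by 0.68 (SE 0.22) and GT72B1 by 0.54 (SE 0.16). Cytochromes P450 had 0 of 22 higher and 2 lower (median −0.03), CYP71B5 and CYP71B6. Cell wall genes had 0 of 32 higher and 2 lower (median 0.05), XTH32 and ATPMEPCRB. AOP3, which modifies glucosinolate side chains, was at 9.61, 9.70 and 9.79 in gcn2 polysomal and 10.66, 10.39 and 10.59 in gcn2 total RNA (log2 −0.85, SE 0.17, limma adjusted p = 0.00219), 1 of 2 lower among 6 glucosinolate genes. Pentatricopeptide repeat proteins, which edit and process organelle RNA, had 0 of 15 higher and 2 lower, CRR22 and PPR596 (median −0.22). The lower shares of the glycosyltransferases, cytochromes P450 and cell wall genes are near that of all named loci, and nothing is read from them. With the 3′ covariate 1 glycosyltransferase and 0 genes of the P450, cell wall, glucosinolate and pentatricopeptide repeat lists were lower in limma. At an unadjusted p under 0.05 with that covariate, 1 P450, 4 cell wall, 1 glucosinolate and 4 pentatricopeptide repeat genes were lower. Glutathione transferases had 2 of 14 higher, GSTU16 and GSTF4, and 0 lower (median 0.16), and 0 passed in limma with the 3′ covariate (1 higher at an unadjusted p under 0.05) or with the control centring (0 at an unadjusted p under 0.05, median −0.17). Loci that RefSeq lists as pseudogenes or non-coding RNA had 5 of 993 higher and 3 lower (median 0.08), and their median level in gcn2 total RNA was 2.61, below the lower quartile of every array.

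Photosynthesis draws its proteins from both genomes. Of 7 nuclear photosystem genes PSAE-1, a stromal subunit of photosystem I, rose, at 13.45, 13.35 and 13.37 in gcn2 polysomal and 12.97, 12.99 and 12.83 in gcn2 total RNA (log2 0.46, SE 0.11, limma adjusted p = 0.00700). The 7 gave 0 calls in limma with the 3′ covariate (1 higher and 1 lower at an unadjusted p under 0.05) and with the control centring (0 at an unadjusted p under 0.05). The others stood between −0.22 and 0.32, with PSBY at 0.00 and the antenna proteins LHCB4.1 and LHCB4.2 at −0.06 and −0.22. Of 3 Calvin cycle genes 2 fell. SBPASE was at 11.69, 11.60 and 11.81 in polysomal and 12.45, 12.59 and 12.46 in total RNA (log2 −0.80, SE 0.18, limma adjusted p = 0.00407). RCA, the activase of rubisco, fell by 0.48 (SE 0.16), and PRK stood at −0.62 (SE 0.24, limma adjusted p = 0.0759). SBPASE, RCA and PRK span 2347 to 2947 base pairs, and PSAE-1 spans 1304.

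Plastid-encoded transcripts varied far more between arrays than nuclear ones. Plastid genes are transcribed and translated inside the organelle on its own, bacterial-type ribosomes. Of 69 measured 2 rose and 7 fell, 56 had negative values, and the median was −0.67. Their median SD over 3 arrays was 1.75 in polysomal and 1.11 in total RNA, against 0.159 and 0.130 for nuclear genes. Measured from the mean of the 3 total RNA arrays, the median plastid difference on the 3 polysomal arrays was −2.23, −0.73 and 0.83. From that mean the arrays did not share a direction. Total RNA arrays varied as well, with ndhH at 6.50, 7.43 and 8.45 there and 3.93, 4.63 and 6.20 in polysomal RNA. Differences between arrays of the same replicate number were not taken for these medians, which therefore do not show how steady such differences are. ndhH was lower in polysomal RNA at each replicate number, as the rule for naming it required. Over the alternative fits, replicate blocks included, its limma adjusted p ran from 3.48e-06 to 0.625. psbI, a small photosystem II subunit, was at 9.63, 10.69 and 11.81 in gcn2 polysomal and 6.99, 6.70 and 8.90 in gcn2 total RNA (log2 3.18, SE 0.75, limma adjusted p = 0.00604). In gcn2 non-polysomal RNA psbI averaged 11.07. Its neighbour psbK rose by 2.79 (SE 0.93), at 8.29, 10.06 and 10.58 against 5.82, 5.98 and 8.76. psaA, a core protein of photosystem I, was at 4.82, 7.28 and 7.20 in polysomal and 10.18, 8.81 and 11.43 in total RNA (log2 −3.70, SE 0.89, limma adjusted p = 0.00674). The psbI and psbK genes span 111 and 186 base pairs and the psaA gene 2253. The 33 measured plastid photosynthesis genes had a median span of 246 base pairs, and 8 of them were positive (median −0.44).

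Of 15 plastid ribosomal protein genes 3 fell, with a median of −1.09. rpl22 was at 7.29, 8.51 and 10.11 in gcn2 polysomal and 11.52, 11.37 and 11.43 in gcn2 total RNA (log2 −2.81, SE 0.85, limma adjusted p = 0.0265), with tight total RNA arrays and wide polysomal ones. rps3 fell by 1.97 (SE 0.55) and rps4 by 0.94 (SE 0.24). In the NDH complex, which returns electrons from ferredoxin to the thylakoid chain, 3 of 10 genes fell, ndhH by 2.54 (SE 0.80), ndhA by 1.76 (SE 0.50) and ndhI by 0.96 (SE 0.32). Of the 11 other plastid genes, which include rpoA and clpP, 0 passed in limma and 1 was lower at an unadjusted p under 0.05, with a median of −0.97 and negative values throughout. The calls of psaA, rpl22, rps3, ndhH and ndhA ended without gcn2 polysomal replicate 1, and in limma no plastid ribosomal or NDH gene fell without it or with the 3′ covariate. At an unadjusted p under 0.05, 3 ribosomal and 2 NDH genes were lower without that array and 0 of either with the covariate. With that covariate the medians of all 4 plastid groups turned positive, at 1.93 for photosynthesis, 1.41 for NDH, 0.62 for ribosomal proteins and 1.18 for the others. The photosynthesis and NDH medians were also positive without gcn2 polysomal replicate 1 (0.41 and 0.15) or total RNA replicate 3 (0.04 and 0.31). The median of each of the 4 groups thus turned in at least 1 fit, for the ribosomal and other genes only in the covariate fit. That fit extends its slope beyond the 3′ excess seen within groups. Among 16 mitochondrial genes 1 rose and 0 fell, with a median of −0.05, the 1 being nad2 at 2.45 to 3.10 in polysomal RNA and 2.34 on each total RNA array, both below the lower quartiles.

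**Figure D3:**
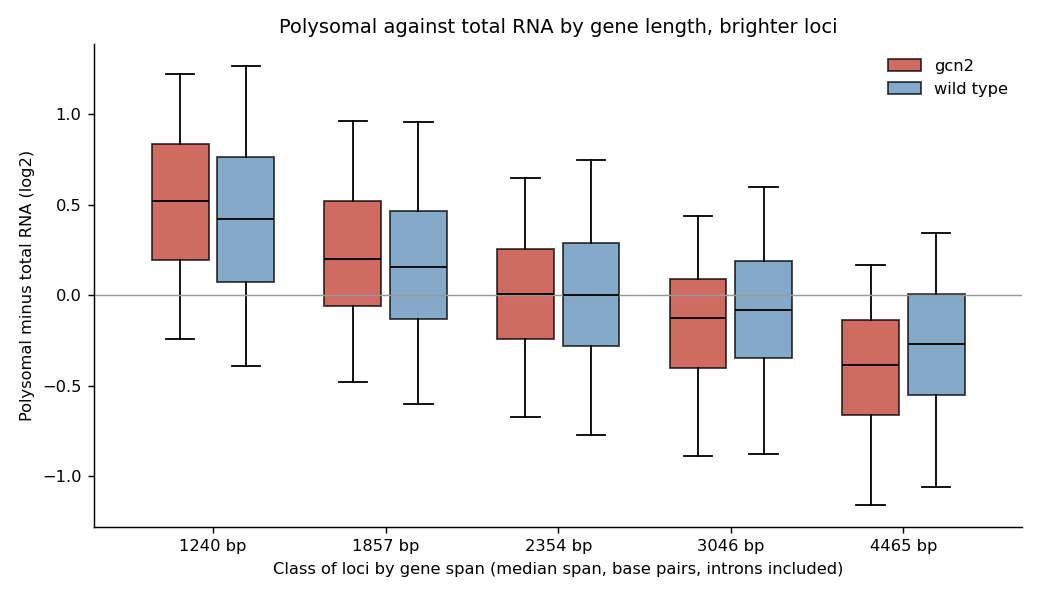
Difference between polysomal and total RNA on the log2 scale for nuclear loci at or above the median signal, in 5 equal classes by gene span from short to long, with gcn2 left of wild type in each pair. Boxes show the quartiles, whiskers percentiles 5 and 95 and black lines the medians, which for gcn2 are 0.52, 0.20, 0.01, −0.13 and −0.38.

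The differences were ordered by the length of the gene, with loci cut into 5 equal classes from short to long. Gene span, introns included, was taken from the RefSeq table for 13216 nuclear loci. Among the 5976 loci at or above the median signal, the median difference in gcn2 was 0.52 in the shortest class, around 1240 base pairs, and 0.20, 0.01, −0.13 and −0.38 in the classes around 1857, 2354, 3046 and 4465. The share called higher fell along the same order, at 46.6%, 26.4%, 10.5%, 4.44% and 0.669%, while the share called lower was 1.42%, 4.44%, 9.29%, 17.5% and 36.7%. Spearman's rho between span and difference was −0.63 over these loci and −0.46 over all 13216, a description across genes that share the same 6 arrays. Over all loci the median was 0.15 in the shortest class, 0.17 in the next and −0.17 in the longest, and the shortest class held the dimmest loci, with a median signal of 3.35 against 5.26. In the wild type the median was 0.42 in the shortest and −0.27 in the longest class of brighter loci. gcn2 non-polysomal RNA, set against the same total RNA arrays, gave 0.49 and −0.25. The order by length is thus seen in gradient RNA of both kinds.

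Each array was then measured from the mean of the total RNA arrays of its own genotype, which holds the total RNA arrays near 0 on average. By array, the longest minus the shortest class of brighter loci was −1.16, −0.93 and −0.65 in gcn2 polysomal RNA, against 0.02, −0.06 and 0.04 in gcn2 total RNA. The gcn2 non-polysomal arrays stood at −0.92, −0.65 and −0.63. Wild-type polysomal arrays stood at −0.75, −0.79 and −0.48, against 0.04, 0.26 and −0.29 for wild-type total RNA, so that the wild-type total RNA arrays lay on both sides of 0. Measured from the total RNA mean of the wild type in place of their own, the gcn2 polysomal arrays stood at −0.93, −0.75 and −0.45 and the gcn2 total RNA arrays at 0.20, 0.15 and 0.24, again without overlap. Measured likewise from the gcn2 total RNA mean, the wild-type polysomal arrays stood between −1.01 and −0.68 and the wild-type total RNA arrays at −0.17, 0.04 and −0.49. This reference was chosen after seeing the data. The 3′ excess of the controls was also larger in all gradient arrays than in the total RNA arrays, as the plot of both measures by array shows. In gcn2 polysomal RNA it was 3.23, 2.69 and 3.05 in replicates 1, 2 and 3. With the 3′ excess as a covariate the longest minus shortest difference over all nuclear loci, dim ones included, was −0.27, against −0.32 without it. No such value is given for the brighter loci, and that fit cannot separate the 3′ excess from the kind of RNA. The part of gene length and of the 3′ excess in any single gene's difference was not tested.

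**Figure D4:**
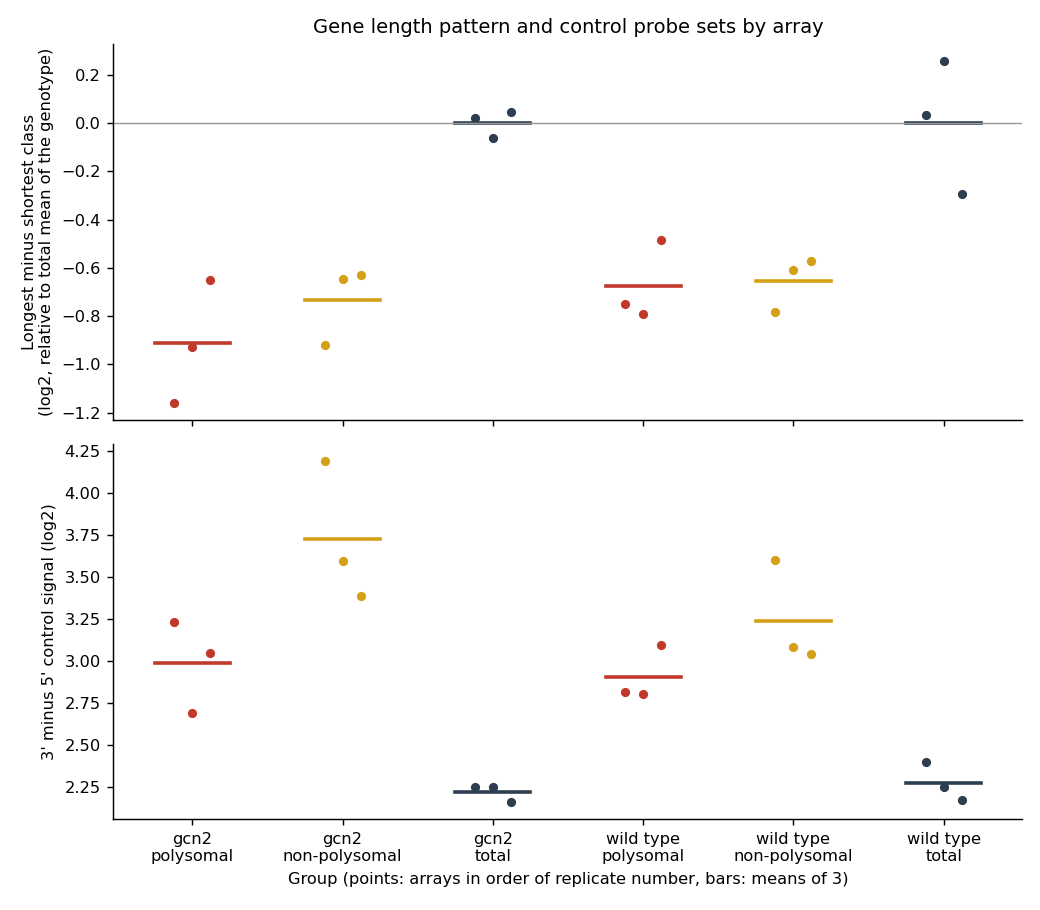
Upper panel: median difference from the mean of the genotype's own total RNA arrays in the longest class minus that in the shortest class of brighter nuclear loci, on the log2 scale, for each array. Lower panel: 3′ minus 5′ signal of the Actin, GAPDH and ubiquitin controls on the same arrays, with bars for group means, where the total RNA arrays are at 2.16 to 2.40 and all gradient arrays at 2.69 or more.

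The wild type showed how far the gcn2 pattern was shared. In wild-type polysomal against total RNA 4068 probe sets passed in limma, 1893 higher (8.32%) and 2175 lower (9.56%), 17.9% in all. Of the gcn2 calls 2651 were also called in the same direction in the wild type, which is 60.9% of the gcn2 and 65.2% of the wild-type calls, and 0 were called in opposite directions. The differences of the genotypes, which share no array, correlated at 0.788 (Pearson) and 0.706 (Spearman) over probe sets, as a description across probe sets. In the test of the difference between the genotypes, 0 of 22746 probe sets passed in limma, with 926 at an unadjusted p under 0.05 and a smallest adjusted p of 0.975. With array weights 228 passed and without wild-type total RNA replicate 2 there were 23.

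**Figure D5:**
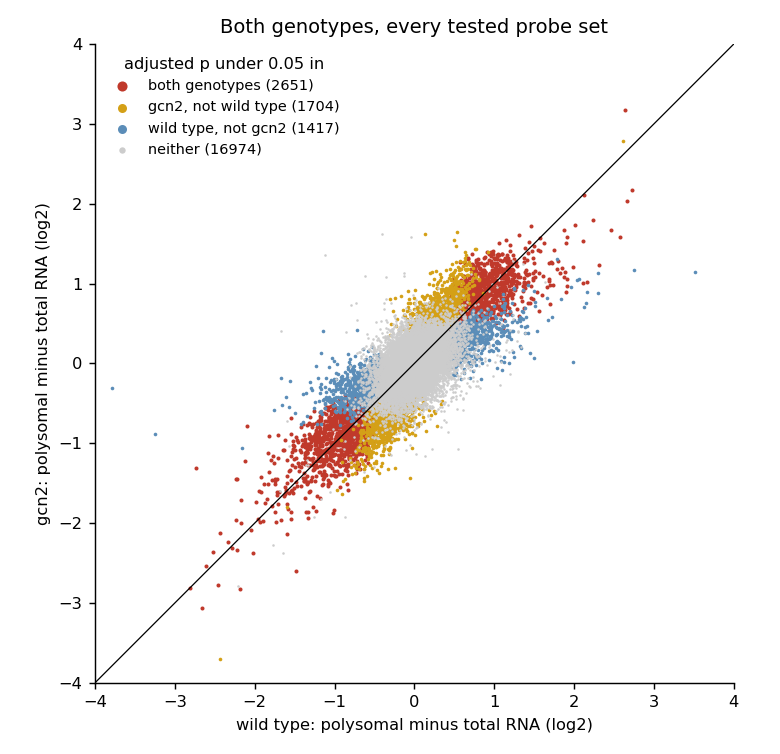
Polysomal minus total RNA on the log2 scale for every tested probe set, gcn2 on the vertical and wild type on the horizontal axis, with the line of equal values. Colours mark whether the limma adjusted p was under 0.05 in both genotypes (2651), in gcn2 and not wild type (1704), in wild type and not gcn2 (1417) or in neither (16974), and no probe set called in both lies on opposite sides of 0.

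The genes with the smallest p for that difference did not pass (limma adjusted p = 0.975 for each) and are given as values. OTC, ornithine transcarbamylase of arginine synthesis, stood at −0.02 (SE 0.16) in gcn2 and −0.81 (SE 0.16) in the wild type, with gcn2 polysomal arrays of 9.11, 9.11 and 9.03 and total RNA arrays of 8.98, 9.24 and 9.11. DPE1, a glucanotransferase of starch breakdown, stood at −0.29 (SE 0.16) in gcn2 and −0.98 (SE 0.16) in the wild type. COR15A, the cold-induced partner of COR15B, stood at 0.76 (SE 0.26) in gcn2 and −0.38 (SE 0.26) in the wild type, ZCF125 at −0.01 and −0.97, and BGLU47 at 0.05 and −0.81. In the other direction PWD stood at −2.82 (SE 0.13) in gcn2 and −2.18 (SE 0.13) in the wild type. CYP71B5 stood at −0.74 (SE 0.14) and −0.14 (SE 0.14), and DER2.2 at −0.58 (SE 0.17) and 0.18 (SE 0.17), gcn2 before wild type. ILR3, a bHLH protein of the iron response, stood at 0.08 (SE 0.12) in gcn2 and 0.58 (SE 0.12) in the wild type, and ATN1 at 0.10 and 0.67.

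Of the 30 named genes and loci, 13 lost their call with the 3′ excess as a covariate, which were psaA, rpl22, ndhH, rps3, ndhA, PDF1.2b, PDF2.1, NRPB12, NRPB9B, CYS1, KIWI, SP1L4 and AT1G64360. With the BioB and BioC centring 7 did, PDF2.1, CYS1, SIM, KIWI, SP1L4, ATG8C and SP1L3. PWD, TROL, RH39, FZL, ATATH8, AARE, ILA, CYTC-2, psbI and the loci AT3G19550, AT1G67860, AT1G76810, AT4G39690 and AT4G31210 passed in every fit run for them. The sign of the difference stayed the same for all 30 in every fit.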

How the data were processed

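Aerial parts of gcn2 and wild-type seedlings were measured as polysomal, non-polysomal and total RNA with 3 arrays each, grouped by the sample titles. The table deposited by the authors holds 1 log2 value per probe set and array, judged from its range. RMA, affy and MAS5 are named without role or version, per the submitters' processing notes, and how the values were summarized is not stated there. The number of arrays limits the precision. The labels do not say that replicates were grown separately, so p-values may cover technical spread alone. The genotype labels were not checked against the transcript of the mutated gene, which was not analysed here.

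Differences were contrasts between group means, fitted to the 18 arrays of 6 groups (12 residual degrees of freedom) in limma 3.58.1 under R 4.3.3 with empirical Bayes moderation. The threshold was 0.05 after Benjamini-Hochberg adjustment over 22746 probe sets. Errors of differences are moderated standard errors. In simulated data of 22746 genes with these arrays' spread, the gcn2 contrast recovered 78 of 100 genes changed by 1 log2 unit and 98 of 100 changed by 2, with 15 unchanged genes called. The simulated noise was independent for each gene and array, and fewer genes were changed than were called in the data. Effects shared by whole arrays were not simulated, so the rates in the data may differ. Of the tested probe sets 13513 had 1 gene in the platform annotation, 503 several and 8730 were not listed. RefSeq's TAIR10.1 table named 13436 of them, as 13355 loci, each given by its brightest probe set. That table served for names and gene spans alone, because protein lengths were not used here. No 2 arrays held identical values (0 of 153 pairs).

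Named were the 12 loci with a symbol and the 3 without that changed most in each direction, among those past the threshold whose arrays did not overlap and whose higher group reached the median signal, and up to 4 members of each list by moderated statistic. Members beyond these, and the RNA polymerase, SPIRAL1 and chaperonin groups, were chosen after their values were seen. The comparison and all lists were chosen with earlier results of these data known. A list holds only loci measured by a probe set of their own. The lists of cytosolic ribosomal proteins and aquaporins had 0 measured members, GI of the clock list stood at −0.50, and of 9 nucleolar genes RH39 fell and UBA1A rose. Alternatives were other normalizations, a signal filter, other variance models, the replicate number as a block, the 3′ excess as a covariate and leaving out each array.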

Additional observations from a re-analysis of the deposited data

How the results depend on the processing

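All counts are of probe sets past a limma adjusted p of 0.05. For gcn2 polysomal against total RNA (2004 higher and 2351 lower), the BioB and BioC centring gave 74 higher and 1883 lower, array weights 3153 higher and the 3′ covariate 550 higher and 585 lower, with 1189 to 2054 higher and 1497 to 2092 lower when 1 array was left out, fewest without gcn2 polysomal replicate 1. For the wild type (1893 higher and 2175 lower), the centring gave 220 and 601, array weights 4415 and 4936, the 3′ covariate 1153 and 1197, and leaving out 1 array 1094 to 1762 and 1355 to 2274, fewest without polysomal replicate 2. The genotype difference gave 131 higher and 97 lower with array weights and at most 8 and 15 with 1 array left out, namely wild-type total RNA replicate 2. Over all probe sets, replicate numbers did not consistently pair polysomal with total RNA. Correlations of deviations at the same number were −0.13, −0.10 and 0.35 in gcn2 and 0.40, 0.00 and 0.10 in the wild type. In gcn2 the plastid gene ndhH increased with replicate number, at 3.93, 4.63 and 6.20 in polysomal and 6.50, 7.43 and 8.45 in total RNA. Taking the number as a replicate block, gcn2 had 2373 higher and 2724 lower on 18 arrays and 2286 and 2782 on the 6 compared, wild type had 1144 and 1324 on its 6, and 0 passed for the genotype difference. No gcn2 call of a named gene was reversed under any alternative run, but of 27 gene group medians 14 turned in at least 1 alternative, namely the 4 plastid groups, mitochondrial, nuclear photosystem, amino acid synthesis, transcription factor, nucleolar, cell wall, P450, glutathione transferase, redox and non-coding. Of 448 values of named genes 407 stayed past the threshold and 41 did not. The longest minus shortest difference by gene span was −0.90 without dim probe sets, against −0.32. Protein length, planned as the length measure, was not run and gene span replaced it, chosen after seeing the data, as were the 3′ covariate for gene groups and the length measure under other settings. Without dim probe sets, 3666 of the 4355 calls were fitted and all 3666 were kept, against 1846 kept with the centring and 1003 with the 3′ covariate.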
